A study of Mus musculus with 3 samples.

Results

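The genes of sterol and fatty acid synthesis and their regulators were compared between uncv null and wild type mouse dorsal skin. The set was a list of 36 genes: 19 enzymes of sterol synthesis, 11 enzymes that make, elongate or desaturate fatty acids, and 6 genes that sense sterols or control the pathway. Members were found by symbol among the probe sets that the platform annotation pairs with exactly 1 gene, and each gene was represented by its brightest such probe set over the arrays. Of the 36 genes, 35 had such a probe set, against 18193 genes in the whole table, and Acat2 had none. Testing required an average of 5 or more on the log2 scale, which kept 34 members of 8456 tested genes and left out Fads2.

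The uncovered (uncv) mutation leaves mice with little or no hair and is known to lie in Rhbdf2. The skin came from 4-day-old female BALB/cA mice, all sisters from uncv heterozygous crosses. There were 3 samples with 1 array each: 1 wild type (uncv +/+) and 2 uncv null (uncv -/-), called null 1 and null 2 below. The labels give no treatment, and whole dorsal skin holds epidermis, hair follicles with sebaceous glands, dermis, fat and muscle. In these bulk samples, fewer cells of a type and less RNA per cell cannot be told apart.

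Sterol regulatory element-binding proteins (SREBPs) are membrane-bound transcription factors. When sterols in the endoplasmic reticulum fall, SCAP carries them to the Golgi, where proteases release the active factor. INSIG proteins hold the complex back when sterols are plentiful. SREBP-2 mainly drives cholesterol synthesis and SREBP-1 mainly fatty acid synthesis. In skin both pathways feed the lipid barrier of the cornified layer, sebum and dermal fat.

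Values are deposited log2 expression values, so a difference of 1 is 2-fold. Differences are uncv null minus wild type. Pearson's r over tested probe sets lay between 0.958 and 0.972 for the 3 pairs of arrays, and the pair of null arrays, at 0.961, was not the closest. Averaged over 18 hybridisation spike-ins, null 1 exceeded wild type by 0.70 and null 2 by 0.43. The null 1 offset is larger than any member difference in that array, and the part of these offsets in the member differences was not tested. Krt1 and Krt10, the keratins of differentiating epidermis, were at 12.4 or above in every array.

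Most members were slightly higher in uncv null skin, and the shift was carried mainly by null 2. Of the 34 tested members, 24 were higher and 0 lower than wild type in both null arrays, and 10 differed in sign between those arrays. Over all tested genes, 38.8% were higher and 26.4% lower in both. Both differences subtract the same wild type array, so the null arrays do not give independent differences. In null 2, 32 of 34 members lay above wild type, against 58.8% of all tested genes. In null 1 it was 26 of 34, against 53.5%. The median member difference was 0.16 in null 1 and 0.47 in null 2, beside 0.03 and 0.07 over all tested genes.

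The differences were small. No member reached 2-fold in both arrays, a size that 0.225% of all tested genes passed upward and 0.296% downward. Nor did any reach 1.5-fold in both arrays, where 1.49% of all tested genes stood higher. By limma, with p-values adjusted by Benjamini-Hochberg over 13559 probe sets, 0 members passed (adjusted p = 0.9996 for each), as did 0% of tested genes. An unadjusted limma p under 0.05 was reached by 1 member, Elovl6, and by 2.9% of tested genes. The member values are therefore descriptions of 3 arrays. In 16 of the 34 members the null arrays lay farther from each other than their mean lay from wild type, and in the others they lay closer. Over all tested genes 57.5% had the null arrays farther apart in this way.

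**Figure D1:**
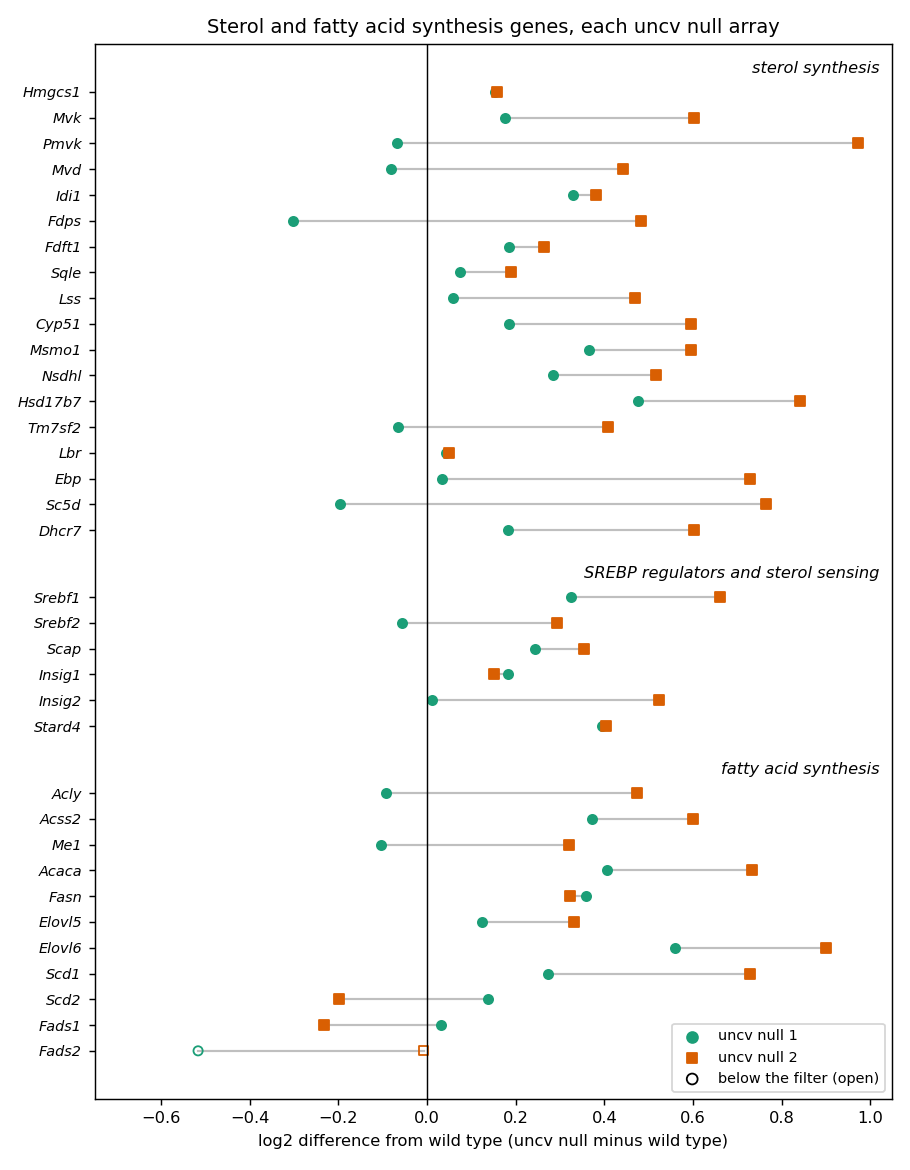
Log2 difference from wild type (horizontal axis) of each member, one row per gene in pathway order. Circles are null 1, squares are null 2, open symbols mark Fads2, which was below the filter; most squares lie right of the circles, and 32 of 34 tested squares lie above 0.

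The sterol genes begin with the mevalonate pathway, which turns acetyl-CoA into isoprenoid units. Hmgcs1, the HMG-CoA synthase that acts after Acat2, read 9.86 in wild type and 10.01 in each of null 1 and null 2, on the log2 scale. Both null arrays stood 0.15 to 0.16 above wild type by this probe set, but its other 3 tested probe sets had mean differences on either side of 0. One of them was lower in both arrays, by -0.11 in null 1 and -0.31 in null 2, so Hmgcs1 has no settled direction. Mvk, mevalonate kinase, was at 6.66, 6.83 and 7.26 in the same order of arrays, and its second probe set differed in sign, at -0.45 in null 1 and 0.45 in null 2. Idi1, the isopentenyl diphosphate isomerase, was at 7.96, 8.28 and 8.34, with both null arrays close together and above wild type. Its other tested probe set, at 0.07 and -0.10, differed in sign, with a mean of -0.02.

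The 3 other genes of this stretch differed in sign between the arrays. Pmvk, phosphomevalonate kinase, had values of 5.94, 5.87 and 6.91. The null 2 array stood apart here, and the gap between the null arrays, at 1.04, was the widest of any member. Mvd, the mevalonate diphosphate decarboxylase, was at 5.71, 5.62 and 6.15. Fdps, farnesyl diphosphate synthase, was at 8.95, 8.65 and 9.43, so wild type lay between the null arrays. Over these 6 genes the median difference was 0.04 in null 1 and 0.46 in null 2.

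The next enzymes commit farnesyl units to sterols. Fdft1, squalene synthase, was at 8.64 in wild type, 8.82 in null 1 and 8.90 in null 2. Sqle, squalene epoxidase, a strongly SREBP-responsive enzyme, was at 8.60, 8.67 and 8.79. Lss, which closes the sterol rings to lanosterol, was at 6.55, 6.61 and 7.02. All 3 genes were higher in both null arrays, with mean differences from 0.13 for Sqle to 0.26 for Lss.

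The enzymes from lanosterol to cholesterol followed. Of their 9 genes, 7 were higher in both arrays, and their median was 0.18 in null 1 and 0.59 in null 2. Hsd17b7, the ketosteroid reductase of demethylation, had values of 6.66, 7.14 and 7.50. Its mean difference of 0.66 ± 0.29 (limma's moderated SE, 1 against 2 arrays), or 1.58-fold, was the largest of the sterol genes. A second Hsd17b7 probe set had a smaller mean difference of 0.49. It was higher in both arrays as well, but by 0.02 in null 1 against 0.97 in null 2.

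Msmo1 and Nsdhl, which act with Hsd17b7 in removing methyl groups, were also higher in both arrays. Msmo1, the methylsterol monooxygenase, was at 8.58, 8.94 and 9.17, a mean difference of 0.48 ± 0.27 (SE). Nsdhl, the sterol dehydrogenase, was at 7.77, 8.05 and 8.28. Cyp51, the lanosterol demethylase, was at 7.38, 7.57 and 7.98. A second Cyp51 probe set differed in sign, at -0.06 and 0.19. These 4 genes had the wild type array lowest and null 2 highest.

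Dhcr7, the reductase that forms cholesterol from dehydrocholesterol, had values of 7.89, 8.07 and 8.49. Ebp, the sterol isomerase, was at 7.71, 7.75 and 8.44, so that null 1 stood next to wild type and null 2 apart. Sc5d, the lathosterol desaturase, was at 6.49, 6.30 and 7.26, again with null 2 alone above wild type, and its second probe set had a mean difference of -0.04. Tm7sf2, a sterol reductase, was at 6.10, 6.03 and 6.51. Lbr, the lamin B receptor, which has the same reductase activity, was at 9.31, 9.35 and 9.36, the smallest difference of the sterol genes.

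Across the 18 measured sterol genes, 13 were higher and 0 lower in both null arrays. Every one of the 18 was higher in null 2 than in wild type, and every one was higher in null 2 than in null 1, where 55.6% of all tested genes stood in that order. In 10 of the 18 the null arrays differed from each other by more than their mean differed from wild type. The same held for 57.5% of all tested genes.

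The control genes of the pathway were likewise a little higher. Srebf1, which encodes SREBP-1, had values of 8.16 in wild type, 8.49 in null 1 and 8.82 in null 2, a mean difference of 0.49 ± 0.28 (SE) or 1.41-fold. Srebf2, which encodes SREBP-2, was at 7.05, 6.99 and 7.34, with the null arrays on either side of wild type and a mean difference of 0.12 ± 0.29 (SE). Whether the 2 genes differ in their response was not tested. Scap, the escort protein, was at 8.07, 8.31 and 8.42.

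Insig1, an SREBP target whose product holds SCAP in the endoplasmic reticulum, was at 7.80, 7.98 and 7.95. Its null values lay within 0.03 of each other and both above wild type, but the mean difference of 0.17 ± 0.26 was under its moderated SE. Insig2, the related retention protein, was at 7.54, 7.55 and 8.06. All 3 Insig2 probe sets were higher in both arrays, yet the one used here and a second were higher almost only in null 2 and the third, at 0.25 and 0.03, mainly in null 1. Stard4, a cholesterol carrier of the cytosol, was at 6.75, 7.14 and 7.15, with the null arrays together and above wild type. Another Stard4 probe set, at -0.34 and 0.44, changed sign from array to array. Of the 6 control genes, 5 were higher in both arrays and Srebf2 differed in sign.

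Fatty acid synthesis starts from cytosolic acetyl-CoA. Acly, ATP citrate lyase, which makes it from citrate, was at 8.95 in wild type, 8.86 in null 1 and 9.43 in null 2. Of its 3 other tested probe sets, 2 were higher in both arrays and 1 differed in sign. Acss2, which makes it from acetate, was dimmer and stood at 5.28, 5.65 and 5.88. Me1, malic enzyme, a source of NADPH, was at 7.08, 6.98 and 7.40 by the probe set used and at 5.90, 6.33 and 6.48 by its second one. The first differed in sign between the arrays and the second was higher in both.

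Acaca, acetyl-CoA carboxylase, the rate-limiting enzyme, had values of 6.74, 7.15 and 7.47, a mean difference of 0.57 ± 0.28 (SE) or 1.48-fold. Fasn, fatty acid synthase, was at 8.30, 8.65 and 8.62. Both genes were above wild type in each null array, and for Fasn null 1 was the higher of the pair. The median over the 5 genes from Acly to Fasn was 0.36 in null 1 and 0.47 in null 2.

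Elovl6, the elongase that takes palmitate to stearate, showed the largest difference of all members. Its values were 8.88 in wild type, 9.44 in null 1 and 9.78 in null 2, a mean difference of 0.73 ± 0.28 (SE) or 1.66-fold. A second Elovl6 probe set read 7.51, 7.99 and 8.50, with both null arrays again above wild type. Elovl6 was the only tested member above the 95th percentile of all tested genes in null 1, which was 0.48. In null 2 that percentile was 0.67, and 7 members lay above it: Pmvk, Hsd17b7, Ebp, Sc5d, Acaca, Elovl6 and Scd1.

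The stearoyl-CoA desaturases, which make monounsaturated fatty acids, did not share a pattern. Scd1, known from sebaceous gland and fat, was at 10.5, 10.7 and 11.2, a mean difference of 0.50 ± 0.30 (SE). A second Scd1 probe set put null 1 below wild type by -0.31 and null 2 above it by 0.98. Scd2 was at 9.82, 9.95 and 9.62, on either side of wild type. Another Scd2 probe set was lower in both arrays, at -0.55 and -0.51, and the third differed in sign. The Scd genes are close in sequence, and an array may not separate them fully.

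The tested genes of polyunsaturated fatty acids had mean differences of 0.23 (Elovl5) and -0.10 (Fads1). Elovl5, the elongase of polyunsaturated chains, was at 8.74, 8.86 and 9.07. Its second probe set differed in sign, at -0.17 in null 1 and 0.28 in null 2. Fads1, a desaturase of this branch, was at 6.45, 6.48 and 6.21, with null 2 the lowest array. Fads2, the desaturase that acts first, was below the filter at 4.84, 4.33 and 4.84. It was the only measured member whose brightest probe set lay below wild type in both arrays, by -0.52 in null 1 and by -0.01 in null 2. The medians of all probe sets on the arrays were 3.65 to 3.70, so Fads2 lay not far above the bulk of dim probe sets.

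The sterol and fatty acid medians lay closer to each other than each lay between the null arrays. Of the 10 tested fatty acid genes, 6 were higher and 0 lower in both arrays, beside 13 and 0 of the 18 sterol genes. The sterol median was 0.11 in null 1 and 0.50 in null 2, and the fatty acid median was 0.21 and 0.40. The sterol median thus lay below the fatty acid median by -0.09 in null 1 and above it by 0.10 in null 2. Over the mean of both arrays the medians were 0.32 and 0.28. Averaging the probe sets of each gene turned the order, with the sterol median 0.11 lower (-0.11). In all, null 2 exceeded null 1 in 18 of 18 sterol genes and in 7 of 10 fatty acid genes.

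**Figure D2:**
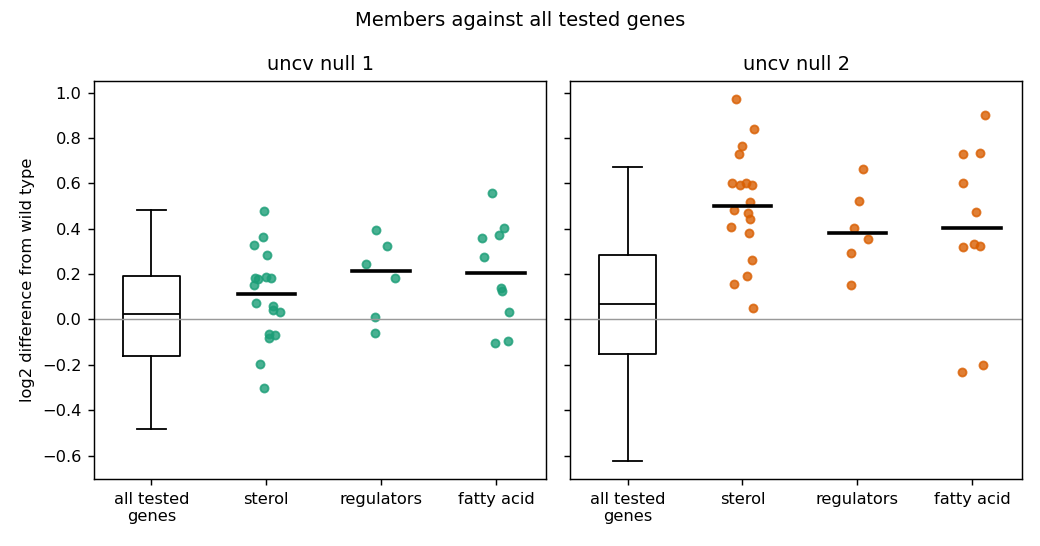
Log2 difference from wild type (vertical axis) in null 1 (left) and null 2 (right). The box spans the 25th to 75th percentile of 8456 tested genes with whiskers at the 5th and 95th, points are members and bars their medians; all 18 sterol points lie above 0 in null 2.

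Several probe sets of 1 gene give a check within the same arrays. Among members, 18 genes had more than 1 tested probe set, with 25 probe sets beside those used. In 20 of these 25 the mean difference had the sign of the probe set used, and in 12 the pattern over both arrays was the same. The 5 of opposite sign belonged to Hmgcs1, Idi1, Sc5d and Scd2. Counted by probe set, 34 of 59 were higher in both arrays and 2 were lower in both. The shares over all tested probe sets are not given here, and the 38.8% and 26.4% above count genes.

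**Figure D3:**
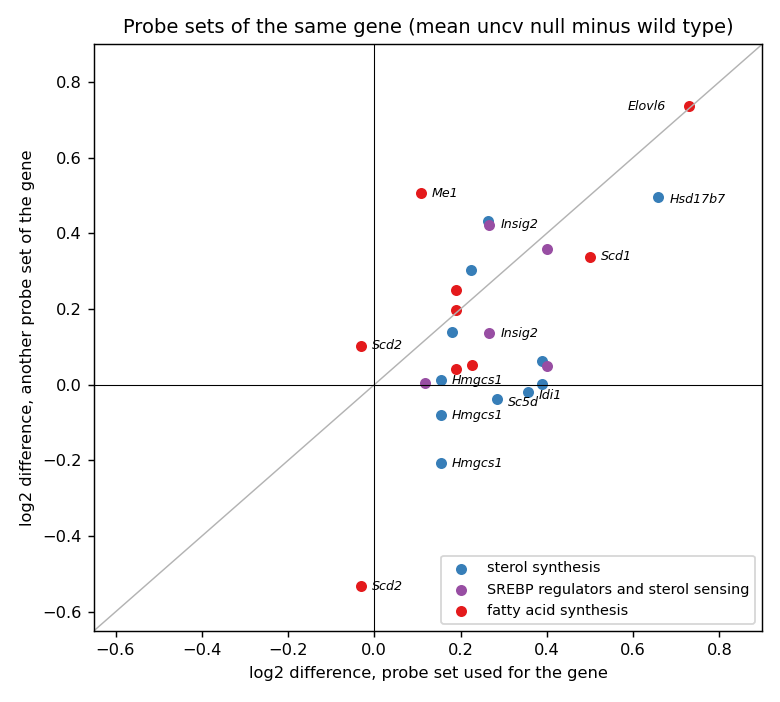
Mean log2 difference of a gene's other tested probe sets (vertical axis) against that of the probe set used (horizontal axis), coloured by list. The line marks equal values; the Elovl6 pair lies near the line, and an Scd2 probe set lies far below it.

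Known SREBP sites prompted a look at the promoters, since many members stood on the same side of wild type. RefSeq promoters of build GRCm38.p6, from 250 bases before to 50 after a start site, were at hand for 29 of the 36 members. Those without one were Fdps, Fdft1, Sqle, Stard4, Scd1, Scd2 and Fads1. Motifs were searched on both strands. The core of the sterol regulatory element, TCACNCCAC, was found for 1 of 29 members, Hmgcs1, and for 1.44% of all genes with a promoter. The box CCAAT, bound by NF-Y, a usual partner of SREBPs, was found for 24 of 29 members, among them 15 of 16 sterol genes and 5 of 8 fatty acid genes. It was present for 41.1% of all genes and for 42.6% of tested genes. The box GGGCGG, bound by Sp1, was found for 24 of 29 members and 71.2% of tested genes. The E-box CACGTG was found for 6 of 29, and for 12.1% of tested genes. These matches are letters in a window and were not shown to be bound sites. A missing match says nothing about sites elsewhere, or about sites in the window that differ from the searched letters.

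Promoters of 4 members are shown for contrast: Hmgcs1 holds the only sterol element core, Hsd17b7 and Elovl6 had the largest sterol and fatty acid differences, and Fasn is a classical SREBP-1 target. They run 5′ to 3′ on the gene's strand, and capitals mark the sterol element core and CCAAT boxes in either orientation. They lie at chr13:119690101-119690400 (plus strand), chr1:169969156-169969455 (minus), chr11:120824498-120824797 (minus) and chr3:129532136-129532435 (plus) for Hmgcs1, Hsd17b7, Fasn and Elovl6.
Hmgcs1: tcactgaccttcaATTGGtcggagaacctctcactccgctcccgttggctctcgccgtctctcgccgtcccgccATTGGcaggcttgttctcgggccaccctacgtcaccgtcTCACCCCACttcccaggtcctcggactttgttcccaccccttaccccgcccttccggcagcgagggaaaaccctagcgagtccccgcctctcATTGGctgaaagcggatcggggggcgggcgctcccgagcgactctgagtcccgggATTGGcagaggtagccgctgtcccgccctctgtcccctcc
Hsd17b7: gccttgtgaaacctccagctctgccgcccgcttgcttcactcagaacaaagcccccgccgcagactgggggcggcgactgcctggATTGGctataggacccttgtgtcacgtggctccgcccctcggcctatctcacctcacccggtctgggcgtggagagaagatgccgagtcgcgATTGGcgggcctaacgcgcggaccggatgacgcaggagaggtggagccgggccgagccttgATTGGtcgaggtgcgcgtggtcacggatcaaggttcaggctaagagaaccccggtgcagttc
Fasn: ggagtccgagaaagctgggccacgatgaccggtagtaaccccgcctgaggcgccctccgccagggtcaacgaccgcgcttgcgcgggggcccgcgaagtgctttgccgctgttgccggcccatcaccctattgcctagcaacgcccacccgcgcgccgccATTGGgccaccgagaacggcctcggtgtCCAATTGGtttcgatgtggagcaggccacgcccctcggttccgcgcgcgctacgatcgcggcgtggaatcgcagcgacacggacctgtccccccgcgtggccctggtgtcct
Elovl6: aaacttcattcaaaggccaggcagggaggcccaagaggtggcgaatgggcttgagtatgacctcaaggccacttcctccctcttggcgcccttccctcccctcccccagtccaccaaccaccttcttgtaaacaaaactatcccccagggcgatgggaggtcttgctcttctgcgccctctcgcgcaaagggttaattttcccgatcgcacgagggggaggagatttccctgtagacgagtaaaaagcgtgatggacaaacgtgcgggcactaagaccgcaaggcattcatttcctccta

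The Hmgcs1 window held 4 CCAAT boxes and the sterol element core. Hsd17b7 and Fasn held 3 CCAAT boxes each. Elovl6 held 0 of the 4 motifs in this window. Whether the motifs go with the expression differences was not tested.

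Other genes of the pathway, taken from lists, gave a mixed picture, and none passed the adjusted limma test. Among 5 further sterol genes with a tested probe set, 2 were higher and 0 lower in both arrays. They were Npc2, the lysosomal cholesterol carrier, at 0.07 and 0.38, and Pcyt2 of phospholipid synthesis at 0.20 and 0.40. Of 10 genes for the cleavage and turnover of SREBPs, 4 were higher and 3 lower, with medians of 0.07 and 0.01, close to those of all tested genes. Their largest differences were in Erlin1, at 0.29 and 0.45, and the ubiquitin ligase Syvn1, at 0.38 and 0.32. Of 8 measured genes of LXR signalling and sterol efflux, the 5 past the filter were higher in both arrays, and 2 of the 3 dim ones were lower in both. The sterol exporter Abcg1 was at 5.99, 6.52 and 6.62, and the nuclear receptor partner Rxra at 7.02, 7.56 and 7.44.

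Of 16 further fatty acid genes, 10 were higher and 2 lower in both arrays, with medians of 0.07 and 0.47. Scd3, a desaturase of sebaceous gland, was at 4.57, 4.79 and 5.83, and the elongase Elovl7 at 8.06, 8.40 and 9.10. In both, null 2 stood farther from wild type than null 1. Scd3 passed the filter of 5 only through its null 2 value. Over all 21 measured genes of this list, filter aside, 12 were higher and 3 lower in both arrays. The 5 tested genes that supply NADPH were all higher in both arrays, though by little, with medians of 0.09 and 0.23. Tkt, transketolase, was at 0.24 and 0.37, and Pgd, phosphogluconate dehydrogenase, at 0.15 and 0.36.

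Most markers of white fat and sebaceous gland were higher alongside the members, and brown fat markers gave no common direction. All 11 tested white adipocyte markers were higher in both null arrays, with medians of 0.53 and 1.00, above the fatty acid medians of 0.21 and 0.40. Their mean log2 level was 7.77 in wild type, 8.27 in null 1 and 8.78 in null 2. Plin4, a lipid droplet protein, was at 6.06, 7.21 and 7.87. Retn, an adipokine, was at 6.49, 7.24 and 9.02. Of 8 sebaceous gland markers, 7 were higher in both arrays, with medians of 0.25 and 0.86 and a mean level of 7.62, 7.87 and 8.49. Scd3 is among the 7, and Mc5r, below the filter at 4.27, 3.30 and 3.93, is not among the 8. Over all 10 measured sebaceous genes 7 were higher and 1 lower, with medians of 0.22 and 0.80. Pparg and Dgat2 stand in both the white adipocyte and sebaceous lists, and Scd3 and Elovl3 in both the sebaceous and further fatty acid lists. Elovl3 stands in the brown adipocyte list as well, so these lists are not independent. Of 3 tested brown adipocyte markers 0 were higher in both arrays and 1, Cox8b, was lower, at 7.20, 6.74 and 6.11. Cidea, at -0.24 in null 1 and 1.19 in null 2, and Elovl3, at -0.18 and 0.76, differed in sign. The brown medians were -0.24 and 0.76. Over all 7 measured brown markers, filter aside, 1 was higher and 2 were lower in both arrays. Pparg, the fat and sebocyte regulator, was at 5.33, 5.86 and 6.35, and Far2, a fatty acyl-CoA reductase, at 7.17, 7.54 and 8.34. The part of fat and sebaceous cells in the member differences was not tested.

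Epidermal markers were counted by layer, and the layers were not tested against each other. Of 6 basal markers 5 were higher in both arrays (medians 0.20 and 0.43), while of 7 suprabasal markers 2 were higher and 1 lower (medians -0.07 and 0.05). The basal list's mean level was 8.89, 9.17 and 9.41 and the suprabasal list's 10.84, 10.89 and 10.95. Dermal and muscle markers ran the other way. Of 7 fibroblast markers 6 were lower in both arrays, with medians of -0.07 and -0.49, and of 8 skeletal muscle markers 7 were lower, with medians of -0.76 and -0.94. The mean fibroblast level was 11.2, 11.1 and 10.8, and the mean muscle level 10.4, 9.79 and 9.22. How far these shifts in tissue markers contribute to the sterol and fatty acid values was not tested.

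The remaining marker lists held few tested genes. Of 5 endothelial markers 0 were higher and 2 lower in both arrays, of 4 leukocyte markers 2 and 0, and of 4 melanocyte and nerve markers 0 and 0. Ptprc, among the leukocyte markers counted as higher, was at 4.79, 5.25 and 5.85, so it passed the filter of 5 only through its null values. Without it, 1 of 3 leukocyte markers was higher in both arrays.

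**Figure D4:**
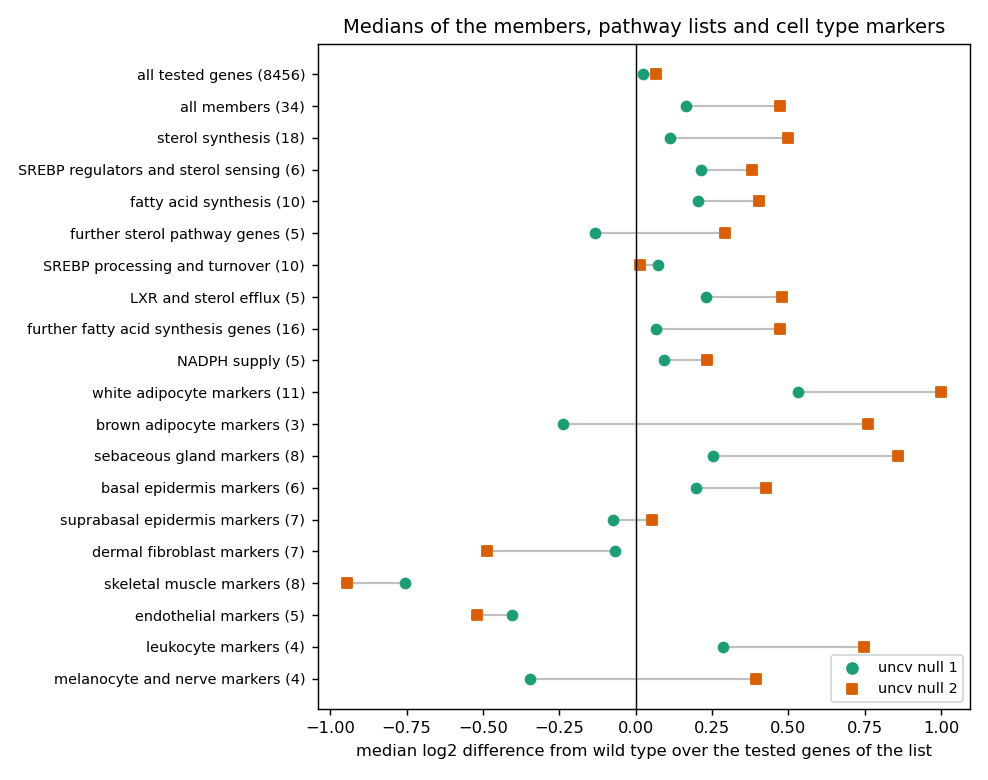
Median log2 difference from wild type (horizontal axis) of the members, the pathway lists and the cell type markers, with the number of tested genes in brackets; circles are null 1 and squares null 2. White adipocyte markers lie farthest right in both arrays and muscle markers farthest left, with the member lists between them.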

How the data were processed

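Total RNA of dorsal skin was hybridised to 1-colour arrays, 1 per sample, with 1 wild type and 2 uncv null samples grouped by their labels. The authors deposited log2 expression values made with RMA, per the submitters' processing notes, which corrects background, normalizes between arrays and summarises probe sets. The sources used here do not give the software, its version or a genome build. The values ran from 1.96 to 13.1. RMA forces a common distribution on the arrays, so a shift of all transcripts together cannot be seen. The number of arrays limits the precision.

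Of 45101 probe sets, 64 controls were kept apart. All 80 member probe sets matched the reference gene table by Entrez identifier, and 0 symbols changed. limma 3.58.1 in R 4.3.3 (lmFit, eBayes, no trend, Benjamini-Hochberg over 13559 probe sets with a mean of at least 5, threshold 0.05) tested uncv null against wild type. It had 1 residual degree of freedom per probe set beside 4.75 prior degrees, and assumes that the wild type array varies like the uncv null arrays. The labels number the uncv null samples separately and the design text calls them mice. The only sample spread behind the p-values and SEs is that between these samples, and it is moderated by a prior drawn from all tested probe sets. A gene whose null arrays lie close together thus has an SE set mostly by that prior, such as Hmgcs1 with 0.26. Every member is named, and in each other pathway list the 2 genes with the largest differences. Members and lists were chosen with earlier results of these data known; the enzyme stretches and printed promoters were chosen after their values were seen. No set test was run. Alternatives were other filters, probe set rules, normalizations and variance models, a smaller fold, and leaving out each uncv null array.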

Additional observations from a re-analysis of the deposited data

How the results depend on the processing

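No member passed limma's adjusted threshold with any filter, probe set rule, normalization or variance model tried. Between 21 and 24 members exceeded wild type in both null arrays under every alternative that kept both arrays, with 26 to 35 members tested. The number lower in both, 0 with the settings of the report, was 1 with no filter (Fads2) and 2 with the mean of each gene's probe sets (Hmgcs1 and Scd2). With a lone uncv null array, 2 to 8 members lay below wild type and 26 to 32 above, and the sterol median ran from 0.11 to 0.50. Sterol minus fatty acid medians ran from -0.09 to 0.10 there, and turned from 0.04 to -0.11 with the mean of probe sets. That setting also turned Hmgcs1, to -0.030. Chosen after seeing the data, leaving out Scd3, which lay under the filter in wild type, gave 9 of 15 further fatty acid genes and 6 of 7 sebaceous markers higher in both arrays. Leaving out Ptprc on the same ground gave 1 of 3 leukocyte markers. The counts over all measured genes of the fatty acid, LXR, sebaceous and brown adipocyte lists were added then too. The sign of a member's mean difference held for 34 of 34 members without uncv null 1, but for 24 of 34 without uncv null 2. The cause was not tested. Wild type, with 1 array, was always kept. No paired analysis was possible because the wild type group holds 1 array. Detection calls were not used here, so signal over background is unknown for dim members such as Acss2 and Fads2.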
